A study of Saccharomyces cerevisiae with 36 samples.

Results

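YPS128, a wild strain of the budding yeast Saccharomyces cerevisiae, was grown in synthetic lignocellulosic hydrolysate that carries toxins (SynH) and in the same medium without them (SynH -HTs). The response to the toxins was taken as SynH minus SynH -HTs, with 2 libraries in each medium, 4 of the 36 libraries of the series. Of 6717 features, the 5927 that averaged 1 RPKM or more across the 36 libraries were tested, RPKM being reads scaled by gene length and by library total. The other libraries came from K11, NCYC361, NCYC3290, Y7568 and UWO.S05.22-7 in the same media and from all 6 strains in YPD, a rich laboratory medium. Every strain is labelled wild, and with respect to SynH YPS128, Y7568 and UWO.S05.22-7 are labelled resistant, NCYC3290 medium, and K11 and NCYC361 sensitive. Cells grew through 3 generations to an optical density (OD600) near 0.5, so the values describe cells already growing in each medium and not the first minutes of exposure. The 2 replicates of a medium are, per the labels, biological ones taken on separate days.

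Hydrolysates are the sugar-rich liquors made from plant biomass, and the toxins found in such liquors include aldehydes, phenolic compounds and weak acids released from the plant cell wall. Yeast reduces toxic aldehydes to less toxic alcohols with NADPH-dependent and NADH-dependent reductases. It exports organic acid anions and lipophilic compounds through ABC transporters such as Pdr12, Pdr5 and Snq2, and stores glycogen and trehalose when stressed.

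The 4 YPS128 libraries held 2471313 and 32829113 reads in genes in SynH, against 2822917 and 2901338 in SynH -HTs. Replicate 2 in SynH was the deepest library of the series, in which the others held 2203784 to 8042551. Replicates correlated across genes at Pearson r of 0.949 in SynH and 0.968 in SynH -HTs, as a description of genes that share a library. The median gene was shifted between replicates 1 and 2, by 0.34 on the log2 scale in SynH and by -0.47 in SynH -HTs. The values are shares of a library, so a change in total RNA per cell was not measured. RPKM values below contain the 1 read that the authors added to each count, which distorts the log2 change of genes with few reads. A gene with 0 reads in all 4 libraries has a change of -1.63 on this scale, since SynH replicate 2 is so deep. Rises of genes with few reads are thus understated, while a fall can appear without a change in expression. With the added read scaled to depth, an alternative chosen after seeing the data, 371 genes were higher and 85 lower.

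Of the 5927 genes, limma (adjusted p under 0.05) called 406, or 6.85%, in YPS128. Transcripts of 324 genes (5.47%) were higher in SynH and those of 82 (1.38%) were lower. Of these, 249 rose and 44 fell by more than 2-fold, and 104 had a mean under 10 RPKM. In none of the 406 did the SynH values overlap the SynH -HTs values. Over all tested genes, both SynH values lay above both SynH -HTs values in 1328 genes (22.4%) and below them in 647 (10.9%). The median change of all tested genes was 0.12 on the log2 scale, and 1007 genes had an unadjusted p under 0.05. The direction of the calls depended on scaling. As deposited, 79.8% of the calls were higher, but quantile normalization moved the median change to -0.05 and gave 303 higher and 175 lower, 63.4% higher. Scaling each library to its median moved it to -0.09 and gave 294 and 227, 56.4% higher. Counts of higher and lower genes also moved with single libraries. Without the deepest library they were 172 and 33, without SynH replicate 1 they were 257 and 189, and without SynH -HTs replicate 2 they were 189 and 40.

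The largest rise was that of ADH7 (YCR105W, R64 chrIII:309070-310155), an NADPH-dependent alcohol dehydrogenase that reduces aldehydes. ADH7 stood at 2400.6 and 2519.4 RPKM in SynH, against 0.472 and 0.437 RPKM in SynH -HTs. In reads this was 8991 and 122905 in SynH, against 1 and 1 in SynH -HTs. The transcript was thus all but undetected without toxins and ranked 67 among all tested genes by mean RPKM with them. Per read of the library totals by which the authors divided, the ratio of SynH to SynH -HTs was 11100, with an exact 95% counting interval of 3060 to 91400 that covers counting error only. The fitted change was 12.40 ± 0.33 on the log2 scale (SE, 2 libraries per medium, adjusted p = 3.2e-18).

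PDR12 (YPL058C, chrXVI:445842-450377), an ABC transporter that exports weak organic acid anions, had 1153.8 and 1005.6 RPKM in SynH, against 34.5 and 34.2 RPKM in SynH -HTs. The replicates lay close together in each medium, and the rise was 31.4-fold (log2 change 4.97 ± 0.21, adjusted p = 7.56e-14). ARI1 (YGL157W, chrVII:209006-210049), an NADPH-dependent aldehyde reductase, had 1116.7 and 1347.3 RPKM in SynH, against 51.8 and 32.1 RPKM in SynH -HTs. Its rise was 30.1-fold (log2 change 4.91 ± 0.33, adjusted p = 4.26e-10). SNG1, a membrane protein known for resistance to nitrosoguanidine, had 87.5 and 83.4 RPKM in SynH, against 2.18 and 3.75 RPKM in SynH -HTs, a change of 4.90 ± 0.49.

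Among the 12 largest rises were also genes of sugar and storage metabolism. HXK1, a hexokinase, had 231.1 and 302.2 RPKM in SynH, against 6.33 and 1.79 RPKM in SynH -HTs (log2 change 6.29 ± 0.58, adjusted p = 1.13e-07). TDH1, a glyceraldehyde-3-phosphate dehydrogenase, had 359.6 and 218.4 RPKM in SynH, against 4.36 and 4.52 RPKM in SynH -HTs, a change of 5.98 ± 0.45. TDH1 shares 27.1% of its 30-base words with other genes, so the count of its reads is uncertain. GPH1, glycogen phosphorylase, had 27.1 and 24.6 RPKM in SynH, against 0.662 and 0.438 RPKM (6 and 4 reads) in SynH -HTs, a change of 5.58 ± 0.65. GSY2, glycogen synthase, had 23.8 and 27.4 RPKM in SynH, against 1.57 and 1.79 RPKM in SynH -HTs, a change of 3.93 ± 0.41. Both the enzyme that degrades glycogen and the one that makes it were therefore higher with toxins. The remaining rises of the 12 were ARG1, treated below, YFR052C-A (5.38 ± 0.61, no match in the annotation), AAD4 (3.99 ± 0.38) and EGO4. Without a match, overlap of YFR052C-A with other genes could not be checked. Its systematic name lies next to that of HXK1, YFR053C, and whether their rises are separate was not tested. EGO4 rested on few reads, 18 and 338 in SynH, against 1 and 0 in SynH -HTs, a ratio per read of those totals of 59.7 with a counting interval of 10.7 to 2370. Its adjusted p was 0.00362 with all libraries, 0.0524 without SynH replicate 2 and 0.0746 without SynH -HTs replicate 2.

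**Figure D1:**
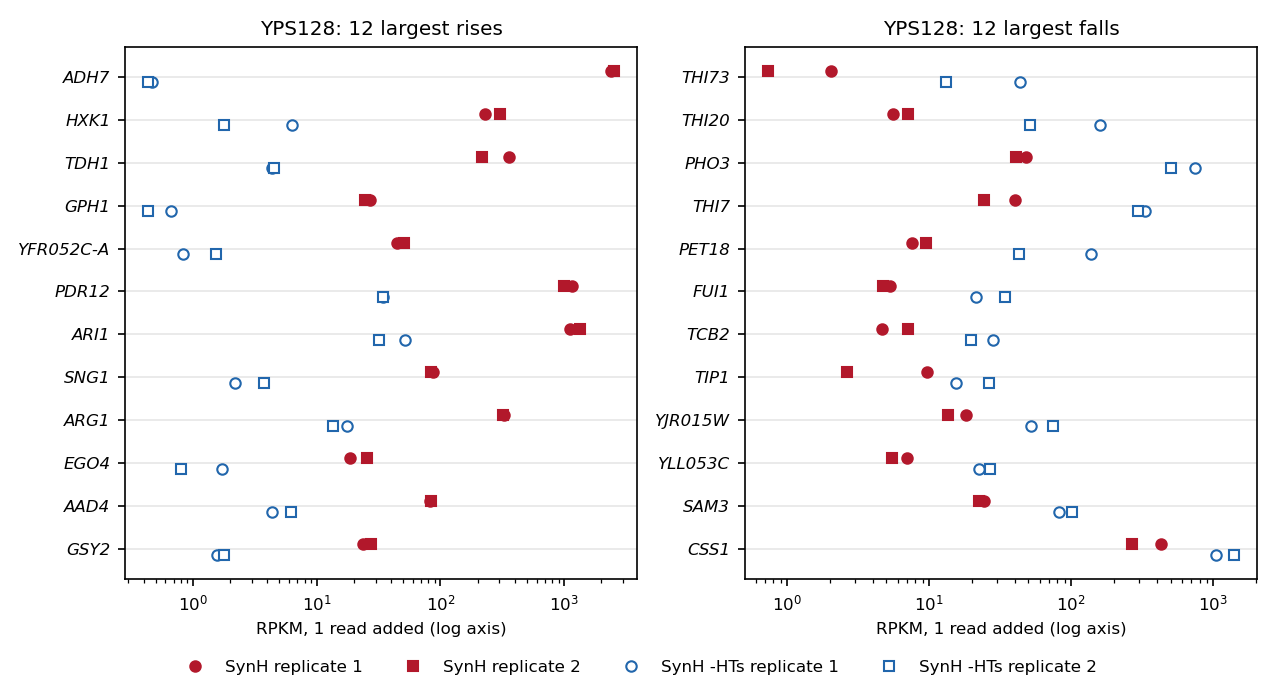
Transcript levels of the 12 largest rises and the 12 largest falls in YPS128 as RPKM with the authors' added read, on a log axis, with filled red symbols for SynH and open blue symbols for SynH -HTs and a circle or square for replicate 1 or 2. No gene has overlapping media, ADH7 has the widest gap, between 2400.6 RPKM in SynH and 0.472 RPKM in SynH -HTs, and TIP1 has the narrowest gap, between 9.62 RPKM in SynH and 15.4 RPKM in SynH -HTs.

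Aldehyde reductases and dehydrogenases rose as a list in 14 of 26 tested members, and none fell. This and each list count below stands against 5.47% higher and 1.38% lower over all tested genes. The median log2 change of the list was 1.27, against 0.12 over all tested genes. With the replicate number as a block in the fit 11 members rose, and the median was 1.01 to 1.41 when single libraries were left out. ADH6, an NADPH-dependent alcohol dehydrogenase related to ADH7, had 701.1 and 639.3 RPKM in SynH, against 200.6 and 200.8 RPKM in SynH -HTs. ADH6 was thus already abundant without toxins, and its rise of 3.34-fold (log2 change 1.74 ± 0.14, adjusted p = 7.2e-09) was far smaller than that of ADH7. GRE2, a methylglyoxal reductase, had 442.9 and 548.4 RPKM in SynH, against 180.3 and 187.1 RPKM in SynH -HTs (1.42 ± 0.20, adjusted p = 2.96e-05). AAD4, a putative aryl-alcohol dehydrogenase, had 82.6 and 84.0 RPKM in SynH, against 4.40 and 6.24 RPKM in SynH -HTs, and it shares 27.1% of its 30-base words with other genes. ALD6, a cytosolic acetaldehyde dehydrogenase that makes NADPH, did not pass, with 381.2 and 436.8 RPKM in SynH and 503.2 and 506.6 RPKM in SynH -HTs (-0.31 ± 0.31, adjusted p = 0.72), and it is named here after its value was seen.

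Efflux targets of the regulators Pdr1 and Pdr3 rose in 6 of 14 members, and 1 fell, with a median of 0.85. SNQ2 had 480.5 and 552.7 RPKM in SynH, against 56.0 and 62.3 RPKM in SynH -HTs, an 8.73-fold rise (log2 change 3.13 ± 0.19, adjusted p = 9.5e-11). PDR5 had 454.2 and 444.4 RPKM in SynH, against 91.8 and 105.3 RPKM in SynH -HTs, a 4.57-fold rise (2.19 ± 0.22, adjusted p = 3.78e-07). In YPD, PDR5 stood at 429.5 and 425.4 RPKM, close to its level in SynH, so the lower level was that of SynH -HTs. YOR1, a transporter of oligomycin and organic anions, changed by 1.05 ± 0.17 (adjusted p = 0.000258) and ICT1, a lysophosphatidic acid acyltransferase, by 1.64 ± 0.26. The fall was that of PDR10, a further ABC transporter, and its call was lost without SynH replicate 2 or either SynH -HTs replicate. The messages of the regulators themselves did not pass, PDR1 at 0.07 ± 0.37 (adjusted p = 0.97) and PDR3 at 0.85 ± 0.27 (adjusted p = 0.0634).

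The Pdr1 and Pdr3 element TCCGCGGA was searched on both strands in the 500 bases before the start codon. It was found in 5 of the 14 efflux promoters, in 11 of 318 promoters of genes that rose (3.46%), in 0 of 81 of genes that fell, and in 0.577% of all 5545 promoters searched. The sequences here and below are those of the S288C reference (RefSeq R64), written 5′ to 3′ on the strand of the gene with the searched motif in capitals, and YPS128 may differ from them. One of the 2 matches of PDR5 lies at chrXV:619509-619552, plus strand, and is shown as the element of the pump named first for this pathway.
PDR5: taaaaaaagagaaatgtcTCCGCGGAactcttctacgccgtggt

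Targets of War1 and Haa1, regulators of the weak acid response, rose in 3 of 14 members and fell in none, with a median of 1.08. Besides PDR12, GPG1 rose on few reads, 8 and 87 in SynH, against 1 and 0 in SynH -HTs, a ratio of 15.9 with a counting interval of 2.79 to 636, and missed the threshold without SynH -HTs replicate 2. YGP1, a cell wall glycoprotein, had 1197.3 and 964.6 RPKM in SynH, against 191.7 and 422.7 RPKM in SynH -HTs (1.92 ± 0.53, adjusted p = 0.0262), a call that was lost without SynH replicate 1, SynH replicate 2 or SynH -HTs replicate 1. Targets of Yap1, the regulator of the oxidative stress response, rose in 8 of 23 members, with a median of 0.52 and none lower. FLR1, a drug exporter, PRX1, a mitochondrial peroxiredoxin, CTT1, a cytosolic catalase, and MCR1, a mitochondrial NADH-cytochrome b5 reductase, changed by 2.24, 1.95, 2.22 and 1.18. Without SynH replicate 2, 4 of the 23 rose, and CTT1 did not pass.

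Genes of the general stress response, driven by Msn2 and Msn4, had a median of 1.70. Arginine synthesis lay next to it at 1.66, and the order of the 2 lists turned with log2(RPKM + 1), at 1.48 and 1.59, without SynH replicate 2, at 1.43 and 1.64, and without SynH -HTs replicate 1, at 1.85 and 2.0. Of 29 tested members 17 rose and none fell, while 7 rose without SynH replicate 2 and 9 without SynH -HTs replicate 2. PGM2, a phosphoglucomutase, had 54.3 and 67.8 RPKM in SynH, against 8.39 and 5.28 RPKM in SynH -HTs (3.19 ± 0.42, adjusted p = 1.84e-05). HOR7, a small protein induced by osmotic stress, had 481.6 and 446.2 RPKM in SynH, against 125.2 and 137.2 RPKM in SynH -HTs. MSN4 itself rose, at 31.9 and 39.7 RPKM in SynH, against 10.7 and 6.90 RPKM in SynH -HTs (2.05 ± 0.37, adjusted p = 0.000736), whereas MSN2 changed by 0.53 with an adjusted p of 0.296. The list of glycogen and trehalose genes overlaps the stress list and had 10 of 20 members higher and none lower, with a median of 1.34, and 5 or 4 were higher without SynH replicate 2 or SynH -HTs replicate 2. TSL1, a subunit of the trehalose synthase complex, had 27.9 and 35.5 RPKM in SynH, against 3.50 and 3.31 RPKM in SynH -HTs (3.21 ± 0.50, adjusted p = 0.000129).

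The stress response element AGGGG, searched on both strands in the same windows, was found in 26 of 29 promoters of the general stress list and in 16 of 20 of the glycogen and trehalose list. It was found in 57.9% of the promoters of genes that rose (184), in 23.5% of those of genes that fell (19) and in 34.3% of all. A match is a description of letters and not a shown binding site. The 4 stretches below belong to the storage genes named above. For GPH1 both matches are shown (chrXVI:860931-861002, plus strand), for GSY2 1 of 2 on the other strand (chrXII:660502-660542, plus strand), for PGM2 2 of 5 (chrXIII:477800-477883, minus strand) and for TSL1 3 of 5 (chrXIII:70375-70481, plus strand).
GPH1: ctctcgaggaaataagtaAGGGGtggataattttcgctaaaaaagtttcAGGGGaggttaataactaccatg
GSY2: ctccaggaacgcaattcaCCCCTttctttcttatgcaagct
PGM2: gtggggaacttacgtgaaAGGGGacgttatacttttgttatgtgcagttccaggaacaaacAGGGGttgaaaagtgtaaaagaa
TSL1: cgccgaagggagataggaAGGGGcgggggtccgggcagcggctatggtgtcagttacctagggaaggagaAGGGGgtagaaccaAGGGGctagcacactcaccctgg

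Glycolytic genes rose in 5 of 17 members, with a list median of 0.24. ENO1, an enolase, had 3763.2 and 2644.5 RPKM in SynH, against 644.8 and 636.5 RPKM in SynH -HTs, and it shares many of its 30-base words with other genes. GLK1, a glucokinase, had 93.9 and 61.1 RPKM in SynH, against 10.6 and 10.1 RPKM in SynH -HTs, and it overlaps YCL042W. Of the hexose transport and sensing list, 2 of 16 members were higher, 2 were lower and 12 were not called. HXT4, a glucose transporter, had 331.1 and 225.8 RPKM in SynH, against 39.4 and 18.9 RPKM in SynH -HTs (3.32 ± 0.47, adjusted p = 3.52e-05). HXT3, another, had 1324.4 and 983.4 RPKM in SynH, against 451.2 and 424.7 RPKM in SynH -HTs (1.38 ± 0.18, adjusted p = 1.84e-05). The call of HXT3 was lost under median scaling, and it shares 23.4% of its 30-base words with other genes. HXT1, also a glucose transporter, had 357.3 and 243.1 RPKM in SynH, against 762.4 and 868.2 RPKM in SynH -HTs (-1.47 ± 0.26, adjusted p = 0.000687). MIG3, a transcriptional repressor related to Mig1, had 3 and 49 reads in SynH, against 49 and 64 reads in SynH -HTs (-3.63 ± 0.38, adjusted p = 7.46e-07).

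Genes of the tricarboxylic acid cycle rose in 9 of 21 members, with a median of 0.81, and those of the respiratory chain and ATP synthase in 10 of 36, with a median of 0.71. No member of either list fell. IDP1, the mitochondrial NADP-dependent isocitrate dehydrogenase, rose by 1.25 ± 0.15 (adjusted p = 2.99e-06), SDH2, a subunit of succinate dehydrogenase, by 1.59, and NDI1, the internal NADH dehydrogenase, by 1.69. Counts of both lists varied with the processing. Of the tricarboxylic acid cycle 4 rose under median scaling, and of the respiratory chain 3 rose without SynH replicate 2 and 5 without SynH -HTs replicate 2. Glucose-repressed genes and galactose genes rose in 4 of 12 members, and in 2 without SynH replicate 2.

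Arginine synthesis rose in 7 of 10 members, with none lower and a median of 1.66, against 0.12 over all tested genes, and 6 or 7 rose whichever library was left out. ARG1 (YOL058W, chrXV:219211-220473), argininosuccinate synthase, had 327.1 and 320.8 RPKM in SynH, against 17.6 and 13.5 RPKM in SynH -HTs. This 21.0-fold rise (log2 change 4.39 ± 0.27, adjusted p = 9.5e-11) was the largest of the list. ARG4, argininosuccinate lyase, had 116.0 and 121.6 RPKM in SynH, against 12.5 and 12.5 RPKM in SynH -HTs (3.25 ± 0.27, adjusted p = 1.19e-08). ARG7, ornithine acetyltransferase, had 66.3 and 63.2 RPKM in SynH, against 23.8 and 16.8 RPKM in SynH -HTs (1.69 ± 0.23). ARG3, ornithine carbamoyltransferase, ORT1, the mitochondrial ornithine carrier, and ARG56, a precursor of early enzymes of the pathway, also rose, by 2.73, 1.62 and 1.61, and are named after their values were seen. The members that did not pass were ARG8 at 0.73 (adjusted p = 0.0699), ARG2 at 0.54 and CPA1 at 0.39. The message of GCN4, the activator of amino acid synthesis genes that is controlled mainly by translation, had 893.4 and 925.1 RPKM in SynH, against 680.1 and 510.5 RPKM in SynH -HTs (0.63 ± 0.16, adjusted p = 0.0171), and the call was lost in 7 of the alternatives, quantile normalization (adjusted p = 0.0599) among them.

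The Gcn4 element TGACTCA was found in 9 of 10 arginine promoters, in 40 of 318 promoters of genes that rose (12.6%), in 3 of 81 of genes that fell (3.70%) and in 4.17% of all. Its shorter core TGACTC did not separate rises from falls, at 20.1% of genes that rose, 19.8% of genes that fell and 13.0% of all. The core was found in 10 of 10 arginine promoters and in 15 of 17 purine promoters. ARG1, ARG4, ARG3, ARG7, ORT1 and ARG56 each hold a single match of TGACTCA in the window, and the stretches around it are given so that their surroundings can be compared. They lie at chrXV:218848-218890 (ARG1, plus strand), chrVIII:141557-141599 (ARG4, minus strand), chrX:268467-268509 (ARG3, plus strand), chrXIII:396507-396549 (ARG7, minus strand), chrXV:571014-571056 (ORT1, minus strand) and chrV:295169-295211 (ARG56, plus strand).
ARG1: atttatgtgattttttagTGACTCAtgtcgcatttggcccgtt
ARG4: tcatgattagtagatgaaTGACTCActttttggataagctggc
ARG3: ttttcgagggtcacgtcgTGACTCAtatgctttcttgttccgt
ARG7: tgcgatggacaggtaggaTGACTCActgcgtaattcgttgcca
ORT1: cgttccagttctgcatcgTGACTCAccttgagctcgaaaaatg
ARG56: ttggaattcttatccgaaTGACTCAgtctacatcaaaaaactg

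Other amino acid pathways rose in fewer members. Lysine synthesis had 4 of 10 higher, with a median of 0.61, and 2 without SynH replicate 2 or SynH -HTs replicate 2. LYS1, saccharopine dehydrogenase, had 59.2 and 50.6 RPKM in SynH, against 10.3 and 11.8 RPKM in SynH -HTs (2.31 ± 0.25, adjusted p = 1.07e-06). Branched-chain synthesis had 5 of 13 higher, with a median of 0.63, and LEU4, an isopropylmalate synthase, had 644.9 and 557.0 RPKM in SynH, against 189.0 and 208.2 RPKM in SynH -HTs (1.60 ± 0.21, adjusted p = 1.53e-05). The call of LEU4 was lost under median scaling, and the list had 3 and 2 higher without SynH replicate 2 and SynH -HTs replicate 2. Aromatic synthesis had 4 of 13 higher (2 without SynH replicate 2, 1 under median scaling) and histidine synthesis 1 of 7, and none of either list fell. Nitrogen catabolite repressed genes rose in 5 of 22 (3 under median scaling), among them UGA1, the transaminase of γ-aminobutyrate breakdown, by 1.93, and CAR1, arginase, by 1.62.

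Sulfate assimilation and methionine genes rose in 10 of 25 members and fell in 3, with a median of 0.90, and 5 or 6 rose without SynH replicate 2 or SynH -HTs replicate 2. SUL2, a sulfate permease, had 34.8 and 34.9 RPKM in SynH, against 2.67 and 2.66 RPKM in SynH -HTs, a 13.1-fold rise (3.71 ± 0.29, adjusted p = 5.35e-09). MET3, ATP sulfurylase, the first enzyme of the pathway, had 150.6 and 191.9 RPKM in SynH, against 50.7 and 43.1 RPKM in SynH -HTs (1.86 ± 0.29). The members that fell were SAM3, SAM1 and MMP1. SAM3, the S-adenosylmethionine permease, had 24.5 and 22.3 RPKM in SynH, against 82.1 and 101.2 RPKM in SynH -HTs (-1.96 ± 0.21, adjusted p = 1.09e-06). SAM1, an S-adenosylmethionine synthetase, changed by -0.98 and MMP1, the S-methylmethionine permease, by -1.41, both named after their values were seen, and 2 of the list fell without SynH replicate 2 or SynH -HTs replicate 2.

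The Cbf1 element CACGTGA was found in 19 of 25 promoters of this list and in 4.62% of all, and the Met31 and Met32 element AAACTGTGG in 10 of 25 and in 0.884% of all. SUL2 holds 3 matches of the first when both strands are counted, since TCACGTGA reads as a match on each (chrXII:323191-323260, plus strand). The match of MET3 to the second lies on the other strand (chrX:455968-456012, plus strand). Both are shown as the promoters of the transporter and the enzyme at the entry of the pathway.
SUL2: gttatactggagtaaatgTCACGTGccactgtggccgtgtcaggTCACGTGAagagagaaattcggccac
MET3: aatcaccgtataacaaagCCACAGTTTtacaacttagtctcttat

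Genes of thiamine synthesis and uptake fell. Of 17 tested members of the thiamine and pyridoxine list 7 fell and none rose, with a median of -1.04, against 0.12 over all tested genes. THI7 (YLR237W, chrXII:612367-614163), the thiamine transporter, had 40.5 and 24.2 RPKM in SynH, against 327.8 and 295.4 RPKM in SynH -HTs (-3.31 ± 0.22, adjusted p = 4.26e-10), 9.95-fold lower. PHO3 (YBR092C, chrII:427698-429101), the acid phosphatase repressed by thiamine, had 47.7 and 41.0 RPKM in SynH, against 743.2 and 499.5 RPKM in SynH -HTs (-3.78 ± 0.40, adjusted p = 9.04e-07). THI2, an activator of thiamine genes, had 0 and 21 reads in SynH, against 70 and 40 in SynH -HTs. THI20, a kinase of the pyrimidine branch, had 5.60 and 7.04 RPKM in SynH, against 160.4 and 51.3 RPKM in SynH -HTs (-3.85 ± 0.66). THI73, a putative permease, had 2.03 and 0.736 RPKM in SynH, against 43.5 and 13.1 RPKM in SynH -HTs (-4.29 ± 0.63), and PET18 changed by -3.18 ± 0.59. For THI20, THI73 and PET18 the SynH -HTs replicates themselves lay far apart, replicate 1 being the higher. In YPD, THI7 stood at 86.1 and 80.1 RPKM and THI20 at 6.91 and 6.28 RPKM, below their levels in SynH -HTs. Genes of pyridoxine synthesis did not pass, and SNZ1 stood at 5.84 and 6.35 RPKM in SynH and 6.59 and 5.84 RPKM in SynH -HTs.

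**Figure D2:**
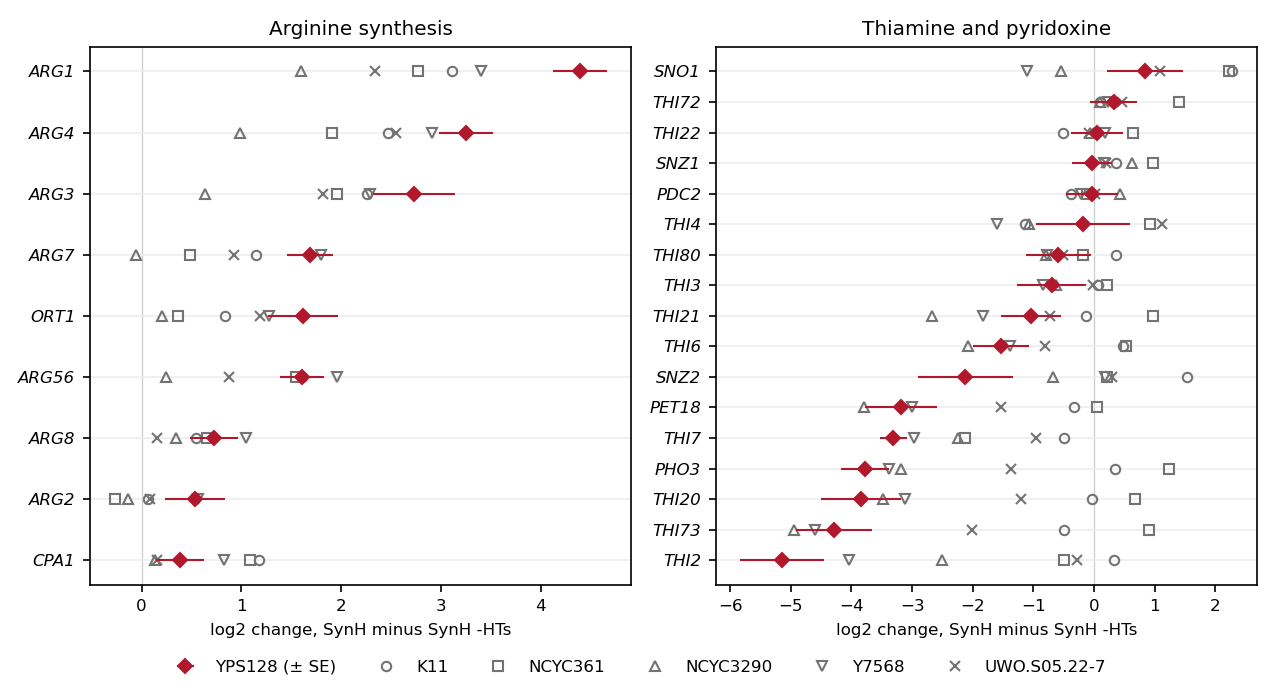
Change of 9 of the 10 tested genes of arginine synthesis (left) and of each tested gene of thiamine and pyridoxine metabolism (right) on the log2 scale, SynH minus SynH -HTs, in YPS128 (red diamonds, bars are standard errors) and in the other 5 strains (grey symbols). ARG1 lies at 4.39 in YPS128 and between 1.60 and 3.40 in the other strains, and THI2 lies at -5.14 in YPS128 and between -4.04 and 0.33 in the others.

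The other genes among the 12 largest falls were of mixed function. FUI1, the uridine permease, had 5.29 and 4.72 RPKM in SynH, against 21.2 and 34.3 RPKM in SynH -HTs (-2.43 ± 0.31, adjusted p = 1.17e-05). TCB2, a tricalbin that tethers the endoplasmic reticulum to the plasma membrane, changed by -2.03 ± 0.28. YJR015W had 18.2 and 13.5 RPKM in SynH, against 52.0 and 74.2 RPKM in SynH -HTs, and YLL053C, which overlaps YLL052C, changed by -1.99 ± 0.40. CSS1 had 425.9 and 265.5 RPKM in SynH, against 1050.9 and 1391.5 RPKM in SynH -HTs, with an adjusted p of 0.00233, of 0.0718 without SynH replicate 2 and of 0.0504 without SynH -HTs replicate 2. TIP1, a cell wall mannoprotein, had 9.62 and 2.64 RPKM in SynH, against 15.4 and 26.3 RPKM in SynH -HTs, and its call (adjusted p = 0.0394) was lost without SynH replicate 2 (0.598), SynH -HTs replicate 1 (0.0522) or SynH -HTs replicate 2 (0.324).

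Ribosome biogenesis genes lay below 0 in 62 of 63 members, with a median of -0.60, yet 3 passed the test. These were CBF5, the pseudouridine synthase of ribosomal RNA (-0.79 ± 0.18, adjusted p = 0.00669), NOP1, the methyltransferase fibrillarin (-1.08 ± 0.27, adjusted p = 0.0144), and UTP20, of the small-subunit processome (-0.68 ± 0.20, adjusted p = 0.0365). All 3 calls depended on single libraries. The count that fell was 9 under quantile normalization, 26 under median scaling, and 1 without SynH replicate 2 or without SynH -HTs replicate 2. The median itself was -0.26 without SynH replicate 1, -0.91 without SynH replicate 2, -0.22 without SynH -HTs replicate 1 and -0.99 without SynH -HTs replicate 2. The list also moved with the replicates, by 0.66 between replicates 1 and 2 in SynH and by -0.75 in SynH -HTs, and the part of this shift in the result was not tested. Small-subunit ribosomal proteins had a median of 0.00, with 1 of 56 lower. The letters AAAAATTT, the RRPE element, were found in 57 of 63 promoters of the biogenesis list and 21.2% of all.

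Purine synthesis fell in 3 of 17 members and rose in none, with a median of -0.45. SHM2, the cytosolic serine hydroxymethyltransferase, had 72.2 and 62.9 RPKM in SynH, against 180.2 and 189.3 RPKM in SynH -HTs (-1.45 ± 0.31, adjusted p = 0.00318). ADE57, a bifunctional enzyme of the pathway, had 109.5 and 88.3 RPKM in SynH, against 179.8 and 184.9 RPKM in SynH -HTs, and ADE6 changed by -0.68 (adjusted p = 0.0465). Without SynH replicate 2 no member passed. The iron regulon split into 4 higher and 5 lower of 30. ISU1, a scaffold of iron-sulfur cluster assembly, had 258.5 and 259.0 RPKM in SynH, against 62.2 and 84.4 RPKM in SynH -HTs (1.84 ± 0.22), and ISU2 and the cell wall mannoproteins FIT2 and FIT3 also rose. FET3 and FTR1, the high-affinity iron oxidase and permease, FET4, the low-affinity transporter, and FRE1 and FRE4, reductases, fell by 1.21, 1.31, 1.98, 1.29 and 2.89 on the log2 scale. FET4 had 2 and 28 reads in SynH, against 12 and 10 in SynH -HTs, and its change lies near the -1.63 of a gene with no reads. The call of FET4 in YPS128 held with the added read scaled to depth and was lost in a fit of the 4 YPS128 libraries alone. FRE4 had 1 and 47 reads in SynH, against 16 and 32 in SynH -HTs. Without 1 library at a time 1 to 3 members fell, and 2 rose without SynH replicate 2 or SynH -HTs replicate 1, when ISU2 did not pass.

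No member of the proteasome list passed (0 of 33, median 0.33). RPN4, the activator of proteasome genes, had 41.4 and 68.3 RPKM in SynH, against 27.4 and 17.3 RPKM in SynH -HTs (1.29 ± 0.30, adjusted p = 0.00645), and the call was lost without SynH replicate 2 (0.185) or SynH -HTs replicate 2 (0.168). Chaperones driven by Hsf1 rose in 3 and fell in 1 of 24, and none rose without SynH replicate 2. The messages of the regulators WAR1, HAA1, YAP1, HSF1, MET4 and INO2 did not pass, with adjusted p of 0.513 to 0.975. Of the other lists, the pentose phosphate pathway had 5 of 15 higher, glycerol and osmotic stress 5 of 19, NAD synthesis 4 of 17, cell wall integrity 3 higher and 1 lower of 25, and inositol and phospholipid synthesis 3 of 22. Without SynH replicate 2 these 5 lists had 3, 2, 2, 3 and 2 members higher, and under median scaling the pentose phosphate pathway had 1. Cell wall integrity had 1 higher without SynH replicate 1 or SynH -HTs replicate 1 and none under quantile normalization. Ergosterol synthesis had 2 of 29 higher, the unfolded protein response 2 of 15, zinc 2 of 11, and fermentation, peroxisomal fatty acid oxidation, the DNA damage response and Aro80 targets 1 each, and the phosphate regulon, haploid-specific and sporulation genes had no member past the threshold, although 4 phosphate genes fell under quantile normalization. The 2 of 29 of ergosterol synthesis lie near the 5.47% over all tested genes, and counts of 1 or 2 members are not read as results about the lists.

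**Figure D3:**
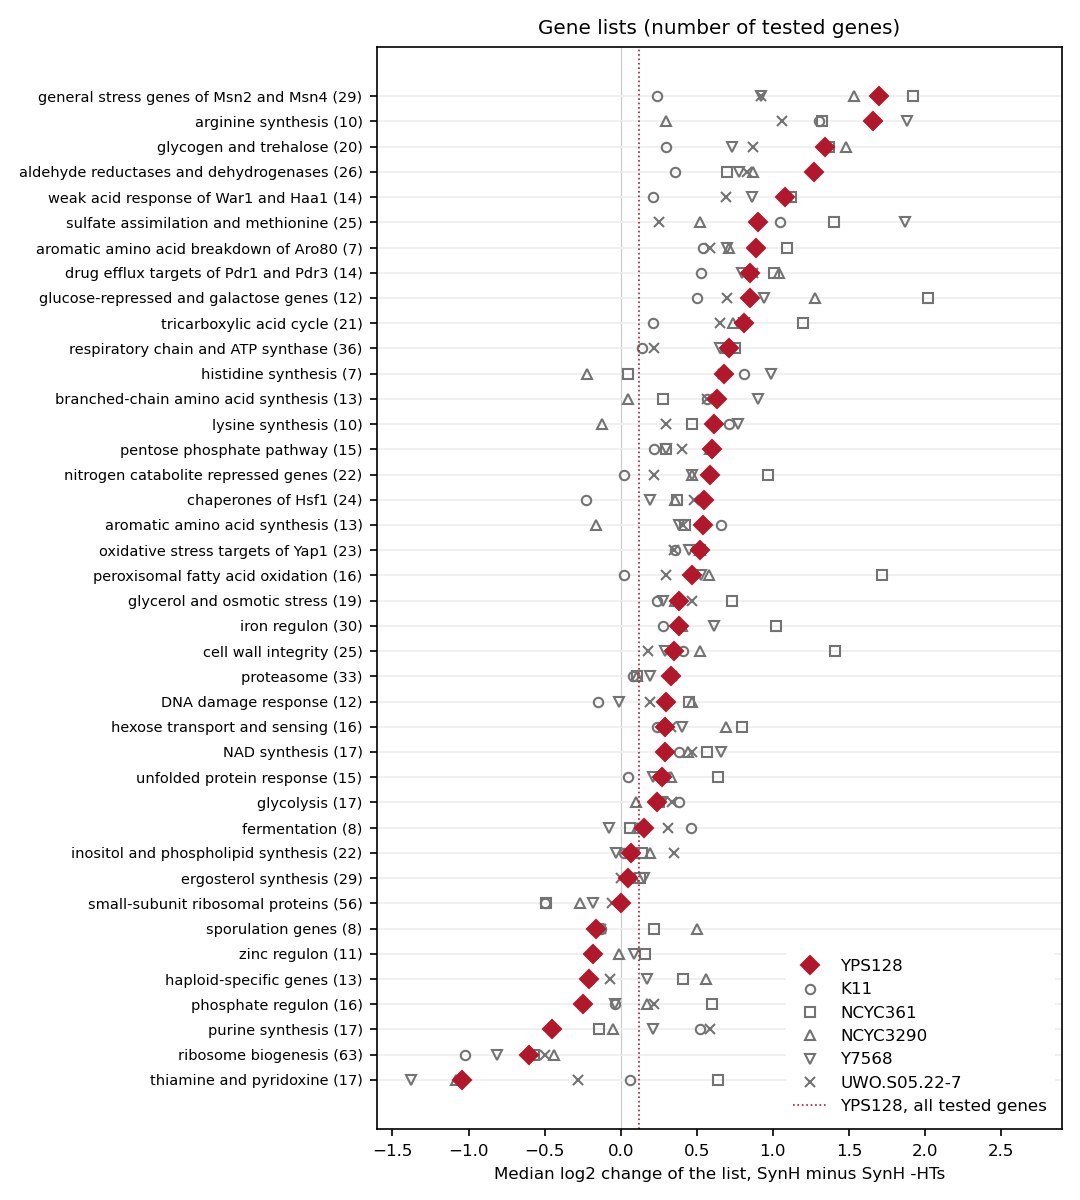
Median log2 change, SynH minus SynH -HTs, of the tested genes of each of 40 lists in YPS128 (red diamonds) and in the other 5 strains (grey symbols), with the number of tested genes in brackets and the YPS128 median of all tested genes, 0.12, as a dotted line. In YPS128 general stress (1.70) and arginine synthesis (1.66) lie at the high end and thiamine and pyridoxine (-1.04) at the low end.

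The number of genes called differed among strains under the same test. It was 406 in YPS128, against 619 (10.4%) in NCYC361, 368 (6.21%) in Y7568, 320 (5.40%) in NCYC3290, 231 (3.90%) in K11 and 170 (2.87%) in UWO.S05.22-7. Higher genes made up 8.87% of those tested in NCYC361, 4.74% in Y7568, 4.54% in NCYC3290, 2.41% in K11 and 2.48% in UWO.S05.22-7, and lower genes 1.57%, 1.47%, 0.86%, 1.48% and 0.388%. Of the 324 genes higher in YPS128, 231 were also called higher in NCYC361, which is 71.3% of the YPS128 list and 43.9% of that of NCYC361. The share of the YPS128 list was 60.2% for NCYC3290, 59.0% for Y7568, 33.6% for UWO.S05.22-7 and 28.1% for K11, and the share of the lists of those strains 72.5%, 68.0%, 74.1% and 63.6%. Of the 82 lower genes, 44 were also lower in Y7568 (53.7% of the YPS128 list, 50.6% of that of Y7568) and 16 in UWO.S05.22-7 (19.5% and 69.6%). In no other strain were 40 of the higher and 29 of the lower genes called, and in all 5 others 37 and 3. The sign of the change was the same in all 5 others for 272 of the 324 higher and 47 of the 82 lower genes.

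The response of YPS128 differed from the mean of the other 5 strains in 13 genes, 0.219% of those tested (limma, adjusted p under 0.05), 7 of them (0.118%) more positive in YPS128 and 6 (0.101%) more negative, while 278 had an unadjusted p under 0.05. Since the mean of unlike strains is the comparison, a difference does not set YPS128 apart from each of them. ADH7 shows this. Its SynH level of 2400.6 and 2519.4 RPKM in YPS128 compares with 5799.7 and 6223.4 RPKM in NCYC361, 6941.6 and 6413.4 RPKM in NCYC3290 and 3463.0 and 3706.0 RPKM in Y7568. UWO.S05.22-7 had 28.7 and 13.8 RPKM in SynH, and K11 had 0 reads in both media. The difference of 4.51 ± 0.36 (adjusted p = 5.86e-08) thus averages over NCYC361, Y7568 and NCYC3290, whose changes of 12.90, 12.69 and 11 stand beside 12.40 in YPS128, and over UWO.S05.22-7 and K11, with 3.13 and -0.26.

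ADH6 and ARG1 changed more in YPS128 than in any other strain. The change of ADH6 was 1.74 in YPS128, against 0.44 to 0.96 in the others, and its SynH level was 701.1 and 639.3 RPKM, against 200.2 to 390.3 RPKM over the 10 other SynH libraries (difference 1.03 ± 0.15, adjusted p = 9.21e-04). Without toxins the strains lay closer, at 200.6 and 200.8 RPKM in YPS128 and 125.4 to 190.6 RPKM in the others. The call for ADH6 was lost under median scaling (adjusted p = 0.413). The change of ARG1 was 4.39, against 1.60 to 3.40 (difference 1.75 ± 0.30, adjusted p = 0.00528), but its level in SynH was higher in K11, NCYC361 and Y7568, at 765.5 to 1297.9 RPKM. The call for ARG1 was lost under quantile normalization (adjusted p = 0.0714), under median scaling (0.103), without SynH replicate 2 (0.0704) and without SynH -HTs replicate 2 (0.106). In SynH -HTs YPS128 had 17.6 and 13.5 RPKM of ARG1, against 100.1 to 169.6 RPKM in those 3 strains. UWO.S05.22-7 was as low there, at 13.9 and 11.2 RPKM, yet changed by 2.34. NCYC3290 had 62.3 and 70.0 RPKM there and changed by 1.60.

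GSY2, SOL4, YJL213W and AAD4 were also more positive in YPS128. GSY2 changed by 3.93, against 0.71 to 2.42 (difference 2.40 ± 0.45, adjusted p = 0.014). SOL4, a 6-phosphogluconolactonase, had 20 and 192 reads in SynH, against 2 and 1 in SynH -HTs, in YPS128, and changed by -1.15 to 1.64 in the others (difference 2.93 ± 0.60). YJL213W had 30 and 37.4 RPKM in SynH, against 3.34 and 5.01 RPKM in SynH -HTs, in YPS128, a change of 3.03 that Y7568 equalled at 3.18, while NCYC361 had -1.78. AAD4 changed by 3.99 in YPS128 and by 3.89 in UWO.S05.22-7, against -0.13 in NCYC3290, where 7 reads or fewer were counted in each library. With the replicate number as a block, none of these 4 differences passed, with adjusted p of 0.07 for GSY2, 0.145 for SOL4, 0.0896 for YJL213W and 0.0816 for AAD4.

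PHO84 (YML123C, chrXIII:24037-25800), the high-affinity phosphate transporter, was the one gene of the 13 that did not pass within YPS128. It had 11.7 and 15.1 RPKM in SynH, against 17.1 and 30 RPKM in SynH -HTs (-0.77 ± 0.39, adjusted p = 0.306), and lay between 0.22 and 4.99 in the other strains (difference -2.94 ± 0.42, adjusted p = 9.21e-04). All 5 others had a positive value, but only 2 of them were called, NCYC361 (4.99) and UWO.S05.22-7 (3.62). NCYC361 had 11.7 and 4.06 RPKM in SynH, against 0.200 and 0.234 RPKM in SynH -HTs, where it had 1 read in each library. UWO.S05.22-7 had 11 and 7 reads in SynH -HTs. Y7568 (1.26), K11 (0.76) and NCYC3290 (0.22) did not pass. The difference thus rests largely on 2 strains with few reads without toxins. PHO84 overlaps the noncoding YNCM0001W. The phosphate list, PHO84 included, had no call in YPS128 and 5 rises in NCYC361.

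Thiamine genes made up 3 of the 6 more negative differences, namely THI7 (-1.55 ± 0.25, adjusted p = 0.00243), PHO3 (-2.51 ± 0.44) and THI2 (-3.75 ± 0.75). They did not fall in YPS128 alone. The list fell in 7 of 17 members in YPS128, and in 8 in NCYC3290, 7 in Y7568, 1 in NCYC361, 1 in UWO.S05.22-7 and none in K11. PHO3 changed by -3.78 in YPS128, -3.38 in Y7568 and -3.19 in NCYC3290, and its highest level in K11 and NCYC361 was 4.49 RPKM in either medium. FET4 changed by -1.98, against a mean of -0.14 in the others (difference -1.83 ± 0.36, adjusted p = 0.0209), on the few reads given above. With the replicate block the differences of THI2 (adjusted p = 0.123) and FET4 (0.145) did not pass. YJR015W changed by -1.99, against -1.29 to 0.33 (difference -1.62 ± 0.23, adjusted p = 9.21e-04).

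**Figure D4:**
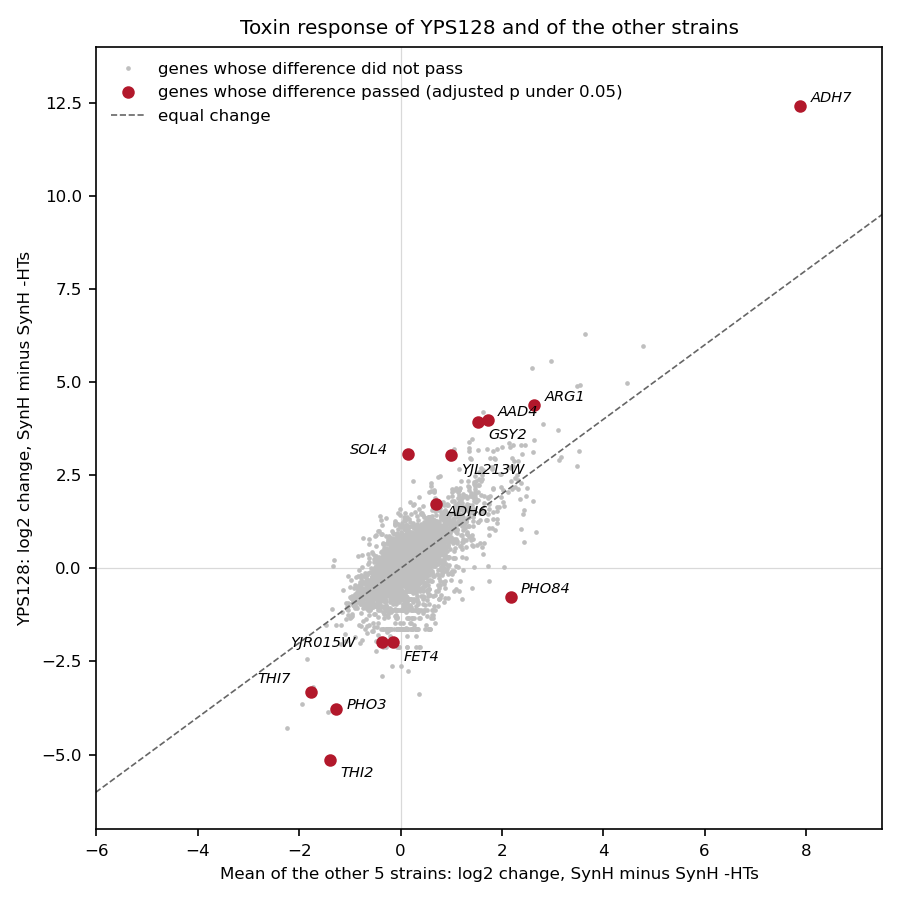
Change of each of the 5927 tested genes on the log2 scale, SynH minus SynH -HTs, in YPS128 (vertical axis) against the mean of the other 5 strains (horizontal axis), with the 13 genes whose difference passed in red and equal change as a dashed line. ADH7 lies at 12.40 in YPS128 against 7.89, THI2 at -5.14 against -1.40, and PHO84 at -0.77 against 2.17, while the rows of grey points near -1.63 are genes with few or no reads in YPS128.

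Counts per list can be set beside those of the other strains, which came from the same fit. The aldehyde list had 14 rises in YPS128 and 5 to 11 in the others. With a replicate block, or with only the 24 libraries of SynH and SynH -HTs in the fit, 11 rose in YPS128. The median was 1.27 in YPS128, 0.36 to 0.87 in the other strains and 0.69 for the mean of the others. When single libraries were left out, the YPS128 median was 1.01 to 1.41. General stress genes rose in 17 members in YPS128, against 16 in NCYC361, 11 in NCYC3290, 5 in Y7568, 4 in UWO.S05.22-7 and 0 in K11. Glycogen and trehalose genes rose in 10 in YPS128, against 13, 10, 3, 1 and 0 in the same strains. Iron genes fell in 5 members in YPS128 and in none in the other strains, where 2 to 14 rose. In YPS128 4 members rose, and the falls were 3 under quantile normalization and 2 under median scaling. The YPS128 median of the list, 0.38, lay within the 0.28 to 1.02 of the other strains. Of this list only FET4 was among the 13 differences. Purine genes had a median of -0.45 in YPS128 and 0.21 for the mean of the others. By strain it was -0.14 in NCYC361, -0.05 in NCYC3290, 0.21 in Y7568, 0.52 in K11 and 0.59 in UWO.S05.22-7. The YPS128 median was -0.80 to -0.20 when single libraries were left out. No purine gene was among the 13 differences. These counts were not tested against each other, and a gene past the threshold in one strain and not in another is not thereby shown to differ.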

How the data were processed

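RNA from 36 yeast cultures was extracted with hot phenol, depleted of ribosomal RNA and made into stranded libraries, per the labels' protocols. Reads were handled with Trimmomatic 0.30, Bowtie2 and HTSeq 0.6.0, per the submitters' processing notes. The sources used here do not name the genome build, the annotation or the use of strand in counting. The authors deposited log2 RPKM values, and the values show that they added 1 read to each count first. Reads were recovered with coding lengths of the RefSeq assembly R64, and in matched genes 99.83% of values came out whole within 0.05 reads. Of 6717 features, 6025 matched a RefSeq locus, and 6 rows that name no gene were left out.

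The deposited values were fitted with limma 3.58.1 in R 4.3.3, with a mean-dependent prior variance, a mean for every combination of strain and medium (18 groups) and no further scaling. All 36 libraries shared 1 estimate of the spread. Within a comparison, p-values of the 5927 tested genes were adjusted by the Benjamini-Hochberg method, and 0.05 was the threshold. Errors are standard errors from this fit. Counting intervals are exact and cover counting error only.

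The comparison, the gene lists, the rules and the alternatives were chosen with earlier results of these data known. Named are the 12 largest rises and falls among called genes with a mean of at least 10 RPKM and media that do not overlap. With them are named the 8 largest differences from the other strains in each direction. A set of regulators, transporters and reductases is named whatever the values. From the described lists, members among the top 4 by adjusted p are named, but not all of them. The rest of the named genes, among them THI2, SOL4 and FET4 of the 13 differences, were chosen after their values were seen. Of 855 list entries 1 had no row. The rule for lists also picks members whose values are left out of the text, MET22, LEU2, LYS2 and ADE17 among them. The alternatives were quantile and median scaling, other libraries in the fit, a replicate block, other filters and added constants, voom on recovered reads, and leaving out single libraries. Replicate numbers were not taken as pairs within YPS128: the labels say that replicates were taken on separate days but tie no number to a day, and deviations of same-numbered SynH and SynH -HTs libraries correlated at -0.377. Across strains the SynH -HTs deviations of same-numbered libraries correlated at 0.426 to 0.562, a shared shift that the fit does not model, and calls lost with a block are named beside the differences.

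On simulated counts of 5555 genes for YPS128 in SynH against SynH -HTs, the fit recovered 31.8% of genes changed by 1 on the log2 scale. It recovered 73.1% of those changed by 2 and 95.5% of those changed by 3, with 7 false calls among 141. The changed genes all had a mean of at least 10 RPKM, and noise was drawn independently for each gene and library. Shifts shared by the genes of a library or by strains were not simulated, so these rates may not hold for the real libraries.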

Additional observations from a re-analysis of the deposited data

Results flagged for a closer look

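The response of YPS128 was tested against the mean response of the other 5 strains, and 13 genes differed (limma, adjusted p under 0.05). More positive in YPS128 were ADH7 by 4.51, SOL4 by 2.93, GSY2 by 2.40, AAD4 by 2.27, YJL213W by 2.04, ARG1 by 1.75 and ADH6 by 1.03 on the log2 scale. More negative were THI2 by -3.75, PHO84 by -2.94, PHO3 by -2.51, FET4 by -1.83, YJR015W by -1.62 and THI7 by -1.55. Of these calls, ADH7 and PHO84 passed in every alternative that was run. THI7 missed the threshold without SynH replicate 2, ADH6 under median scaling, and YJR015W under quantile and median scaling, and each of the other 8 missed it in at least 1 setting that leaves out a library. ARG1 also missed it under quantile and median scaling, and GSY2, SOL4, YJL213W, AAD4, THI2 and FET4 with a replicate block.

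ADH6 and FET4 are neighbours on chromosome XIII of the reference, and in YPS128 their fitted changes had opposite signs, 1.74 and -1.98. That of FET4 rests on few reads, 2 and 28 in SynH, against 12 and 10 in SynH -HTs. The change of FET4 lies near the -1.63 of a gene with no reads. Its call in YPS128 held with the added read scaled to depth and was lost in a fit of the 4 YPS128 libraries alone. With log2(RPKM + 1) the difference of FET4 from the other strains was -0.83 and did not pass. In the other strains ADH6 changed by 0.44 to 0.96 and FET4 by a mean of -0.14.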

How the results depend on the processing

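No result named here reversed its direction when called under any alternative. For the toxin response of YPS128, 175 genes were lower under quantile normalization and 227 under median scaling, against 82 as deposited. A fit of the 4 YPS128 libraries alone, with 2 residual degrees of freedom, called 117 genes, 101 higher and 16 lower, and a fit of the 24 SynH and SynH -HTs libraries had 53 lower. Leaving out 1 library at a time, the genes called ranged from 205 to 446, those higher from 172 to 312 and those lower from 33 to 189, the lone library of a medium being assumed to vary like the other groups. Voom on recovered reads gave 420 higher and 115 lower, and an added read scaled to depth, chosen after seeing the data, 371 and 85.

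For the difference from the other 5 strains, 11 genes were more positive under quantile normalization and 13 with log2(RPKM + 1), against 7. The fit of 24 libraries called 7 genes, 4 more positive and 3 more negative. Leaving out 1 library, the genes called ranged from 5 to 121, those more positive from 2 to 7 and those more negative from 3 to 114, the highest count being that without SynH replicate 1.

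With a replicate block, 259 genes were higher and 61 lower in YPS128, and 7 differed from the other strains, 3 of them more positive. Deviations of same-numbered YPS128 libraries correlated at -0.377, and the crossed pairing, chosen after seeing the data, gave 282 and 76, and 7 differences, 3 more positive.

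Genes with few reads are limited by depth. At 1 kb, 0 reads correspond to 0.290 and 0.0223 RPKM in SynH, against 0.256 and 0.237 RPKM in SynH -HTs.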

Other observations

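The deviations of replicate 2 from replicate 1 in SynH -HTs were shared among strains. Across genes, those of YPS128 correlated with those of each other strain at 0.426 to 0.562 in SynH -HTs, and at -0.082 to 0.633 in SynH. Genes share a library, so these are descriptions. In YPS128 the median shift from replicate 1 to 2 in SynH -HTs was -0.93 on the log2 scale for the thiamine and pyridoxine list, -0.75 for the ribosome biogenesis list and 0.43 for the cell wall integrity list, against -0.47 over all tested genes.

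The YPD libraries of YPS128 entered the filter and the estimate of the spread but not the difference between SynH and SynH -HTs. Some named genes lay outside both hydrolysate media there. GRE2 had 31.4 and 40.6 RPKM in YPD, below both hydrolysate media. CSS1 stood at 2731.4 and 2683.8 RPKM in YPD, above both. FRE4 had 121.2 and 101.3 RPKM in YPD, against 0.268 and 0.495 RPKM in SynH and 2.02 and 3.63 RPKM in SynH -HTs, and PHO84 had 395.9 and 419.1 RPKM in YPD, above both as well. These levels were not tested.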
